A study of Mus musculus with 27 samples.

Results

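The genes described are 10 that intraepithelial lymphocytes of the gut are known to express, namely Cd3e, Cd3g, Cd8a, Itgae, Gzma, Gzmb, Ccl5, Trdc, Cd7 and Cd160. They were chosen by symbol, matched to the Ensembl identifiers of the count files, and are 10 of 46078 genes counted. RNA from scrapings of the colonic epithelium was sequenced in 27 male C57BL/6 mice, 28 days old at the start and 56 days old at the end, with 3 mice in each of 9 groups. The mice received sesame oil vehicle or TCDD (a dioxin and a ligand of the aryl hydrocarbon receptor, AhR) by gavage, every 4 days for 28 days. The low doses were 0.01, 0.03 and 0.1 μg/kg, the middle doses 0.3 with 1 and 3 μg/kg, and the high doses 10 and 30 μg/kg. Scrapings hold epithelium together with whatever immune, muscle and fat cells come with it, and no cells were sorted. Mice are named below by the number in their labels.

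Intraepithelial lymphocytes are T cells that lie between the epithelial cells of the gut, and many of them carry a γδ T cell receptor or the CD8αα form of CD8. They are held in the epithelium by the integrin CD103, store granzymes, and receive signals from epithelial butyrophilin-like proteins and interleukin 15. In mice, their maintenance is known to depend on AhR in the lymphocytes themselves, which is the question that a series of AhR ligand doses bears on. In a bulk sample, fewer cells of a type and less RNA per cell cannot be told apart.

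The sum of gene counts in a mouse was 9305441 at the lowest, 11651026 at the median and 14371035 at the highest, and every statement on the members is limited by how few of these reads they took. Epithelial markers were high, with means of 984 CPM (counts scaled to a common library total) for Epcam and 3121 CPM for Krt8. The exposure was visible in Cyp1a1, the classical AhR target, which had 0 or 1 reads in each vehicle mouse and 23969 to 29287 reads in the 3 mice at 30 μg/kg. The libraries carried 16 index barcodes, some of them used for 2 mice. Mice were taken in order of label number, and the first and second use of a barcode were called the first and second index set. As these numbers rise with dose, the sets follow dose by this rule. Whether they are separate sequencing runs is not given in the sources used here. The first index set held 16 mice, namely every mouse up to 0.3 μg/kg with mouse 41 of the 1 μg/kg group, and the second set held the other 11, so that dose and index set cannot be told apart between vehicle and 3 μg/kg or more.

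No member was called at any dose. In 80 comparisons of a member at a dose with vehicle (10 members, 8 doses), 0 met the threshold of edgeR's quasi-likelihood test (a 1.5-fold change or more and an adjusted p below 0.05), and 4 had an unadjusted p under 0.05. DESeq2 and limma voom also called 0 of them. Over all 16496 genes tested, the share called was 0% for every dose up to 0.3 μg/kg. It was 0.2% for 1 μg/kg, 0.697% for 3 μg/kg, 1.78% for 10 μg/kg and 6.16% for 30 μg/kg (2.95% higher and 3.21% lower). A count of 0 among 10 members is close to the background at every dose. The log2 fold changes of the members ran from -1.25 to 0.59, with standard errors of 0.303 to 0.664, and the 8 comparisons share the same 3 vehicle mice.

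The members were weakly expressed, and 1 of them was too low to judge. Reads per mouse ran from 2 for Gzmb at its lowest to 96 for Gzma at its highest, and the members' mean CPM exceeded that of only 6.54% (Cd160) to 31.1% (Gzma) of the genes tested. Cd160 had a median of 8 reads, under the limit of 10 set for judging a member, and its values are given with that limit. The other 9 had medians between 13 reads (Cd3g and Trdc) and 47 reads (Gzma). All 10 passed the filter on low counts.

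Levels of different genes can be compared only per length, here as mean CPM per kilobase of exon. On this scale Gzma was highest at 4.05, followed by Ccl5 at 3.26, Cd7 at 2.13, Gzmb at 1.41, Itgae at 0.868, Cd8a at 0.860, Cd3e at 0.560, Cd3g at 0.359, Trdc at 0.290 and Cd160 at 0.276. Some neighbours in this order were not separated. Itgae was above Cd8a in 13 of 27 mice, Trdc above Cd160 in 16 and Cd3g above Trdc in 17. Gzma was above Ccl5 in 19 mice and Gzmb above Itgae in 20. The steps from Ccl5 to Cd7 (23 mice), from Cd7 to Gzmb, from Cd8a to Cd3e and from Cd3e to Cd3g (25 mice each) were more regular.

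**Figure D1:**
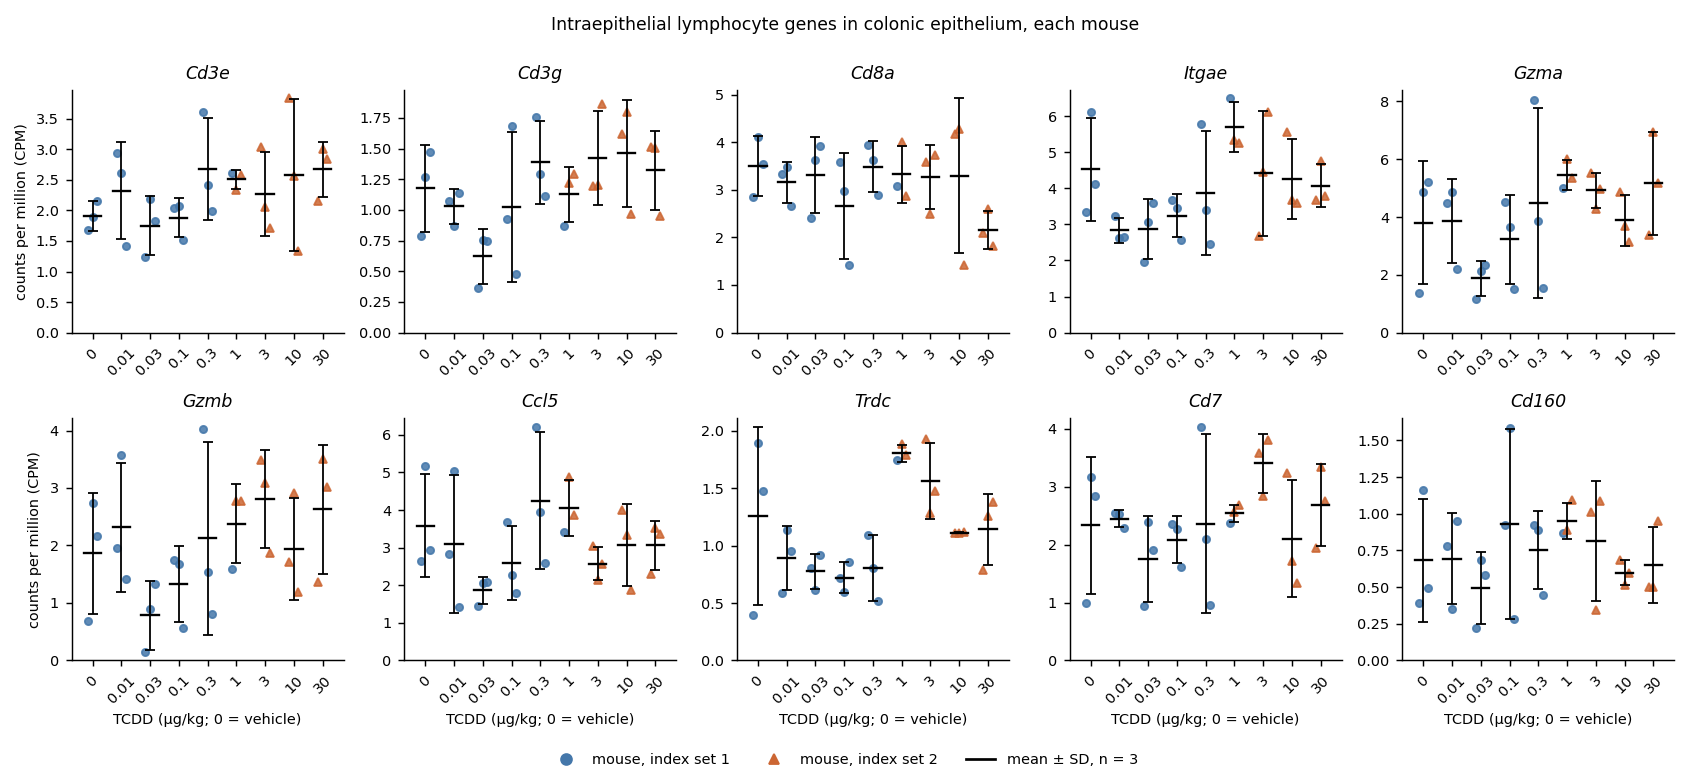
Level of each member in CPM (vertical axes, from 0) in each mouse by TCDD dose in μg/kg (horizontal axes), with the mean and SD of the 3 mice of a group and the index set as colour and shape. In most panels the groups overlap, and at 30 μg/kg only Cd8a has all 3 mice below every vehicle mouse.

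The RefSeq promoter table (build GRCm38.p6) held windows from 250 bases before to 50 bases after the start for 6 of the 10 members, 7 windows in all, with 2 for Cd160. They were searched on both strands for GCGTG, the core that AhR recognises (CACGC on the other strand). It was found in 2 of the 7 windows, and in 32.4% of all 32851 windows of the same length, so that its presence does not set the members apart. The matches were in Cd8a (chr6:71373177-71373476, plus strand), beginning 32 bases after the start, and at the second start of Cd160 (chr3:96814472-96814771, minus strand), beginning 8 bases after it. These windows are printed because they hold the core, in capitals, and a match of 5 letters is a description and not a binding site.
Cd8a: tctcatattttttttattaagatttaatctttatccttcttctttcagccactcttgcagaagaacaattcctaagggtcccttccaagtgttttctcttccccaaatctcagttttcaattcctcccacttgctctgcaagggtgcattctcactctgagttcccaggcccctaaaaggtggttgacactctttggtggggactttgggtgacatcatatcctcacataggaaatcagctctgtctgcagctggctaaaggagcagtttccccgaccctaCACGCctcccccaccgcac
Cd160, second start: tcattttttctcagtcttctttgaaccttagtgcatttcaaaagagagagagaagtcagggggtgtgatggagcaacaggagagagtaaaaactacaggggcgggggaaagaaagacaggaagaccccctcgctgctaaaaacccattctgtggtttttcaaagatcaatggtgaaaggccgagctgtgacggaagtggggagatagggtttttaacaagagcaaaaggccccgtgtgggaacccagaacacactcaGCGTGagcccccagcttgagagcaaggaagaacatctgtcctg
The windows of Gzma (chr13:113100932-113101231, minus strand) and Gzmb (chr14:56262285-56262584, minus strand) are printed because these granzymes varied most alike across the mice, as described below. Neither holds the core, so neither has capitals.
Gzma: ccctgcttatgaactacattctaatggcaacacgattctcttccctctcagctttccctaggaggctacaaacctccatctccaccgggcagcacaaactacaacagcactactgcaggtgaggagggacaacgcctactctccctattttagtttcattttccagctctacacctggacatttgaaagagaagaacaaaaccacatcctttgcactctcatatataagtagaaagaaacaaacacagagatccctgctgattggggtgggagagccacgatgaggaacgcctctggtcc
Gzmb: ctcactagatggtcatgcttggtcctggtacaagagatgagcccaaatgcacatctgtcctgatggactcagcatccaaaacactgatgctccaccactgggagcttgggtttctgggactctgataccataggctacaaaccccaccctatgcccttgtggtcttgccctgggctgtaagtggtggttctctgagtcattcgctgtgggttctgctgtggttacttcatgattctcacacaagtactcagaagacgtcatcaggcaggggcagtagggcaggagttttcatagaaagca

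The T cell receptor subunits did not pass the test at any dose. Cd3e, a signalling chain of the CD3 complex (chromosome 9, 44998740 to 45009627 on GRCm38, minus strand), was counted at 1.67, 1.90 and 2.16 CPM in vehicle mice 2, 3 and 4. At 30 μg/kg it stood at 2.16, 3.01 and 2.84 CPM in mice 65, 66 and 67. The groups met at 2.16 CPM, the highest vehicle and the lowest treated value, and the log2 fold change was 0.48 (SE 0.34, 95% interval -0.22 to 1.17, adjusted p = 0.387). Its widest group was 10 μg/kg, where the 3 mice had 3.84, 2.57 and 1.34 CPM and so spanned nearly the whole range seen in the series.

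Cd3g, the gamma chain of the same complex (chromosome 9, 44969572 to 44980431, minus strand), had 8, 12 and 15 reads in the vehicle mice, or 0.787, 1.26 and 1.47 CPM. At 30 μg/kg it had 21, 18 and 11 reads, or 1.51, 1.51 and 0.948 CPM. The groups overlapped, and the log2 fold change was 0.18 (SE 0.38, adjusted p = 0.813). Its lowest group was 0.03 μg/kg, with 0.364, 0.752 and 0.749 CPM, all below the vehicle mice, and a log2 fold change of -0.91 (SE 0.41) that had an unadjusted p of 0.0374 and an adjusted p of 0.988 by edgeR.

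Trdc, the constant region of the T cell receptor delta chain and so the marker of γδ T cells (chromosome 14, 54142851 to 54148868, plus strand), had 4, 18 and 15 reads in the vehicle mice, or 0.394, 1.90 and 1.47 CPM. Vehicle mouse 2 had the lowest level of all 27 mice. At 0.01 to 0.3 μg/kg the 12 mice lay between 0.518 and 1.13 CPM. The 3 mice at 1 μg/kg stood higher, at 1.74, 1.89 and 1.79 CPM, and those at 3 μg/kg had 1.93, 1.29 and 1.47 CPM. At 10 μg/kg the 3 values were 1.11, 1.11 and 1.12 CPM, and at 30 μg/kg 0.791, 1.25 and 1.38 CPM. No dose was called, and the log2 fold change of the 30 μg/kg group was -0.14 (SE 0.38, adjusted p = 0.858).

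The coreceptor Cd8a was the member whose difference from vehicle at 30 μg/kg was most regular, without passing the test. Cd8a (chromosome 6, 71373427 to 71379173, plus strand) encodes the CD8 alpha chain, which forms the αα homodimer of many intraepithelial lymphocytes. It had 2.85, 4.11 and 3.53 CPM in the vehicle mice (29, 39 and 36 reads) and 2.09, 2.59 and 1.81 CPM at 30 μg/kg (29, 31 and 21 reads). All 3 treated mice were below every vehicle mouse, and the log2 fold change was -0.69 (SE 0.34, 95% interval -1.39 to 0.01, unadjusted p = 0.0537, adjusted p = 0.193 by edgeR). An exact permutation test of the mean CPM, 2-sided, gave p = 0.1, the smallest that 3 mice against 3 allow. Groups at 30 μg/kg and vehicle did not overlap for 1 of 10 members, against 29.7% of all genes tested. At 10 μg/kg Cd8a had 4.18 and 4.28 CPM in 2 mice and 1.42 CPM in mouse 59, the lowest of the series, so the level did not step down with dose.

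Itgae, the alpha chain of CD103 that binds E-cadherin on epithelial cells (chromosome 11, 73090583 to 73147446, plus strand), had 3.35, 6.11 and 4.12 CPM in the vehicle mice. At 0.01 μg/kg all 3 mice were below them, at 3.23, 2.61 and 2.66 CPM, with a log2 fold change of -0.67 (SE 0.32), an unadjusted p of 0.0480 and an adjusted p of 0.781 by edgeR. At 1 μg/kg the mice had 6.49, 5.33 and 5.26 CPM, the highest group. At 30 μg/kg they had 3.67, 4.77 and 3.79 CPM, inside the vehicle range, with a log2 fold change of -0.15 (SE 0.31, adjusted p = 0.802). The gene overlaps Haspin on the opposite strand, but their exons do not overlap.

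The granzymes, proteases of cytotoxic granules, had the widest spread between mice of a group. Gzma (chromosome 13, 113093825 to 113100981, minus strand) had 1.38, 4.85 and 5.20 CPM in the vehicle mice and 3.38, 6.94 and 5.17 CPM at 30 μg/kg. At 0.3 μg/kg it ran from 1.55 to 8.05 CPM within a single group. Gzmb (chromosome 14, 56258838 to 56262260, minus strand) had 0.689, 2.74 and 2.16 CPM in the vehicle mice, 1.37, 3.51 and 3.02 CPM at 30 μg/kg and 0.146, 0.889 and 1.33 CPM at 0.03 μg/kg. Its extremes over the series were 2 reads in mouse 18 and 48 reads in mouse 33. In the 30 μg/kg group the log2 fold change was 0.43 (SE 0.47) for Gzma and 0.49 (SE 0.58) for Gzmb, with adjusted p of 0.595 and 0.638, and vehicle and treated mice overlapped for both. The interval for Gzmb, from -0.72 to 1.70, holds a 3.25-fold rise as well as no change.

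Ccl5, a chemokine stored by effector T cells (chromosome 11, 83525778 to 83530518, minus strand), had 2.66, 5.16 and 2.94 CPM in the vehicle mice and 2.30, 3.51 and 3.36 CPM at 30 μg/kg. Its log2 fold change in that group was -0.23 (SE 0.39, adjusted p = 0.748). At 0.03 μg/kg all 3 mice, at 1.46, 2.05 and 2.08 CPM, were below the vehicle mice, and its unadjusted p of 0.0287 was the lowest of the 80 comparisons, with an adjusted p of 0.988 by edgeR.

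Cd7, an immunoglobulin-family receptor of T and NK cells (chromosome 11, 121036747 to 121039418, minus strand), had 0.984, 3.16 and 2.85 CPM in the vehicle mice and 1.94, 3.35 and 2.76 CPM at 30 μg/kg. These overlapped, and the log2 fold change was 0.20 (SE 0.42, adjusted p = 0.809). The 3 mice at 3 μg/kg, with 3.59, 2.83 and 3.80 CPM, formed its highest group. Cd160, a receptor of NK cells and intraepithelial lymphocytes (chromosome 3, 96798763 to 96829351, minus strand), had 4, 11 and 5 reads in the vehicle mice and 7, 6 and 11 reads at 30 μg/kg. Its log2 fold change of -0.06 had a standard error of 0.57, and its exons overlap those of Pdzk1 on the opposite strand, which had 0 to 32 reads per mouse. Whether the counting used strand is not given in the sources used here, so reads of Cd160 and Pdzk1 may not be told apart.

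At 30 μg/kg, 5 members had a positive and 5 a negative log2 fold change, with a median of 0.056 beside -0.0022 over all genes tested. The 95% intervals of 3 members (Cd3g, Itgae and Trdc) lay within a 2-fold change in either direction, and none lay within 1.5-fold. The intervals of the other 7 include a 2-fold change in 1 direction or, for Cd160, in both. At 0.03 μg/kg all 10 members were below vehicle, with a median log2 fold change of -0.67 beside 0.00047 over all genes, and 3 of them (Cd3g, Itgae and Ccl5) had an unadjusted p under 0.05. At 1 μg/kg 8 of 10 were above vehicle, with a median of 0.34 beside -0.0095 over all genes.

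**Figure D2:**
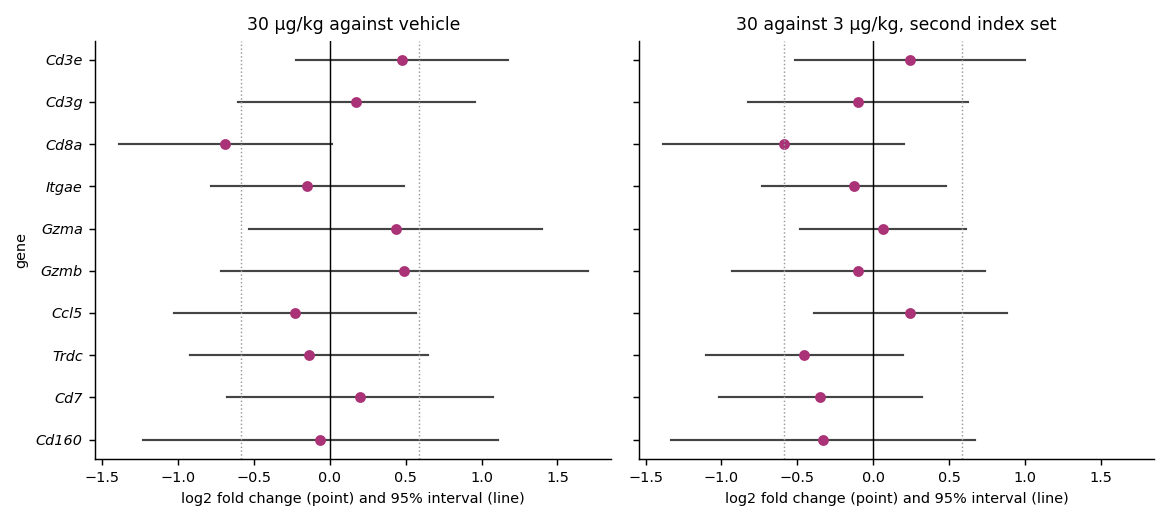
Log2 fold change (points) and 95% interval (lines) of each member at 30 μg/kg against vehicle (left) and against 3 μg/kg within the second index set (right), with dotted lines at a 1.5-fold change. Every interval in both panels includes 0, and Cd8a has the lowest point in each, -0.69 and -0.59.

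No member had a slope over dose rank that passed the test, where 23.4% of all genes did (11.8% higher and 11.6% lower). The slope is the log2 change per step from vehicle through the 8 doses, tested by edgeR over the 27 mice. Of the 10 slopes 9 were positive. Cd3g had the lowest unadjusted p of 0.0446, with a slope of 0.076 (SE 0.036, adjusted p = 0.128 by edgeR). Gzma had a slope of 0.083 (SE 0.045, adjusted p = 0.189), Gzmb of 0.083 (SE 0.056, adjusted p = 0.300) and Cd3e of 0.057 (SE 0.029, adjusted p = 0.158). Cd8a had the only negative slope, -0.036 (SE 0.030, adjusted p = 0.413).

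Within the second index set, which holds 2 mice at 1 μg/kg and 3 each at 3, 10 and 30 μg/kg, the members also stayed under the threshold. Members called numbered 0 for 30 against 3 μg/kg, 0 for 10 against 3 μg/kg and 0 for 10 and 30 together against 1 and 3 together. The share of all genes called was 0.272%, 0.0309% and 0.334% in the same order. In the last of these, 8 of 10 members were lower at the higher doses, and Trdc had a log2 fold change of -0.56 (SE 0.21, unadjusted p = 0.0190, adjusted p = 0.280 by edgeR). For Trdc the 5 mice at 1 and 3 μg/kg spanned 1.29 to 1.93 CPM and the 6 mice at 10 and 30 μg/kg 0.791 to 1.38 CPM, with a small overlap. Cd7 fell short of the threshold at 10 against 3 μg/kg (log2 fold change -0.70, SE 0.32, unadjusted p = 0.0466, adjusted p = 0.989). Cd8a at 30 against 3 μg/kg had -0.59 (SE 0.37, adjusted p = 0.599).

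The members varied together between mice of the same dose. Vehicle mouse 2 was the lowest of its group for 10 of 10 members, mouse 35 the lowest and mouse 33 the highest of the 0.3 μg/kg group for 10 of 10. Mouse 18 at 0.03 μg/kg and mouse 28 at 0.1 μg/kg were the lowest of their groups for 9 members each, and mouse 59 at 10 μg/kg for 8. Summed over the 10 members, the level was 15.2, 32.4 and 26.4 CPM in the vehicle mice and 39.4, 23.9 and 15.3 CPM in mice 33, 34 and 35. The group means of this sum lay between 16.1 ± 4.70 CPM (SD, n = 3) at 0.03 μg/kg and 29.8 ± 1.93 CPM at 1 μg/kg, with 24.6 ± 8.74 CPM in vehicle and 25.6 ± 5.63 CPM at 30 μg/kg. The mice of the vehicle group and of the 0.3 μg/kg group each spanned more than these group means did.

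Because vehicle mouse 2 stood apart, the comparison at 30 μg/kg was repeated without it. Members called remained 0, and the log2 fold changes were 0.39 for Cd3e, -0.040 for Cd3g, -0.81 for Cd8a, -0.32 for Itgae, 0.037 for Gzma, 0.098 for Gzmb, -0.40 for Ccl5, -0.56 for Trdc, -0.16 for Cd7 and -0.33 for Cd160. Each was lower than with the mouse included, which follows from mouse 2 being the lowest vehicle mouse for every member. In this fit 7 of 10 were negative. The adjusted p of Cd8a was 0.205 by edgeR in this fit.

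**Figure D3:**
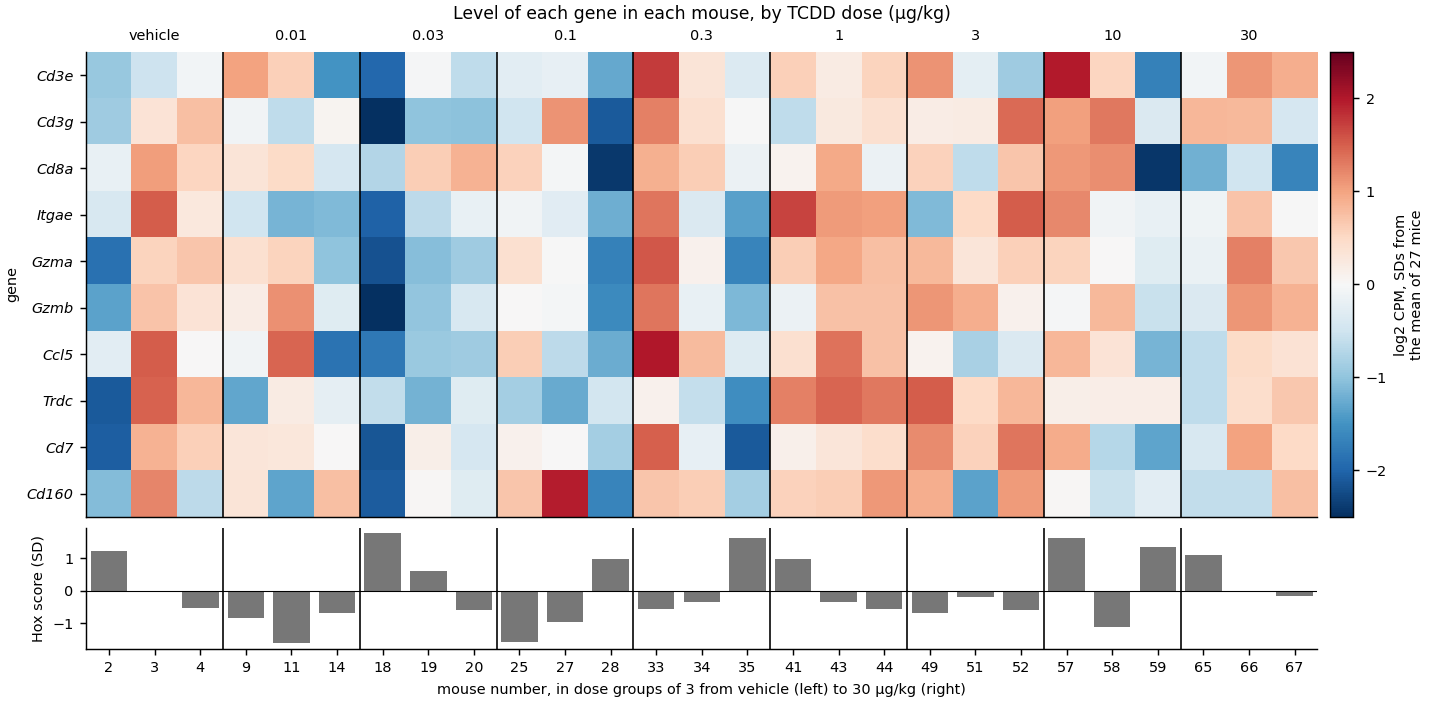
Upper panel, log2 CPM of each member (rows) in each of 27 mice (columns, in dose groups of 3), as SDs from that member's mean, red above and blue below. Lower panel, the Hox score of the same mice in SDs. Columns rather than dose groups share a colour, such as mice 2, 18, 28 and 35 in blue and mouse 33 in red.

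All 45 pairs of members were positively correlated over the 27 mice on log2 CPM, with Pearson's r from 0.152 (Cd8a with Trdc) to 0.898 (Gzma with Gzmb) and a median of 0.550. By permutation, 35 of the 45 had an adjusted p under 0.05. Taking each mouse's deviation from its dose group, all 45 stayed positive, with a median r of 0.579. Within the first index set 45 were positive (median 0.605), and within the second 41 (median 0.396). All pairs share the library size by which both values are scaled.

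Gzma and Gzmb had the strongest relation, with Pearson's r = 0.898 and Spearman's rho = 0.853, each with a permutation p of 1e-05, the smallest that 100000 permutations can give (adjusted p of 0.00015 and 0.000225 over the 45 pairs). Leaving out the 2 mice farthest from the median of Gzma gave r = 0.867, and the index sets gave 0.908 and 0.695. Gzma with Cd7 followed at r = 0.858 and rho = 0.846 (adjusted permutation p of 0.00015 and 0.000225), with 0.782 without the 2 farthest mice and 0.887 and 0.793 within the index sets. Each member was also set against the mean standardized level of the others over the 27 mice, as a description. Gzma was most like the rest (r = 0.924), then Gzmb (0.859) and Cd7 (0.815), and Trdc (0.558), Cd160 (0.556) and Cd8a (0.475) least.

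The 5 other genes whose log2 CPM over the 27 mice was most like the members' mean were Trpm4 (r = 0.885), H2-T3 (0.860), Cyp2d26 (0.851), Slc4a2 (0.848) and Ces2e (0.845). H2-T3 encodes the thymic leukaemia antigen, a ligand of the CD8αα homodimer that gut epithelial cells carry. It had 30.6, 53.4 and 47.6 CPM in the vehicle mice, and so was lowest in mouse 2 as the members were, and 63.6, 50.3 and 28.4 CPM in mice 33, 34 and 35. None of the 5 passed the test at 30 μg/kg, with log2 fold changes between -0.09 and 0.38.

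The medians of the members were lower in the mice with a high Hox score. Hox genes are expressed in graded fashion along the length of the gut, and the score is the first principal component of the log2 CPM of 25 Hox genes (69.5% of their variance), signed to rise with Hoxb13 and scaled to an SD of 1. It differed between mice of the same group, and left a gap between -0.00401 and 0.623, with 9 mice above and 18 below. The 4 mice that were lowest of their groups for 9 or 10 members, mice 2, 18, 28 and 35, had scores of 1.24, 1.77, 0.979 and 1.64. Not every mouse with a high score was low, since mouse 57 at 10 μg/kg and mouse 41 at 1 μg/kg, with scores of 1.63 and 0.976, had summed member levels of 30.8 and 28.0 CPM. Gzmb ran from 0.146 to 1.71 CPM (median 0.889) in the 9 mice above the gap and from 1.33 to 4.02 CPM (median 2.76) in the 18 below. Gzma had medians of 2.12 and 4.86 CPM, Cd7 of 1.62 and 2.62 CPM, and Itgae of 3.35 and 3.74 CPM in the same order.

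The median was lower above the gap for 10 of 10 members over all mice, for 10 of 10 within the first index set (6 mice against 10) and for 9 of 10 within the second (3 against 8). In the second set Gzmb spanned 1.19 to 1.71 CPM above the gap and 1.86 to 3.51 CPM below it, without overlap. Because the scores fall on both sides of a gap, no pooled correlation is given. Within the sides, Gzmb had r = -0.310 over the 9 mice above and 0.160 over the 18 below, and Gzma -0.172 and 0.225. Cd7 had -0.433 and 0.379, and Itgae -0.235 and 0.524. Over the 18 mice the other members had r between -0.312 (Cd8a) and 0.476 (Trdc). These splits were made after the values were seen and carry no test. The share of all genes with a lower median above the gap was not computed. As the members varied together, they are not 10 separate observations. Whether the score reflects the place of the colon that was scraped was not tested.

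**Figure D4:**
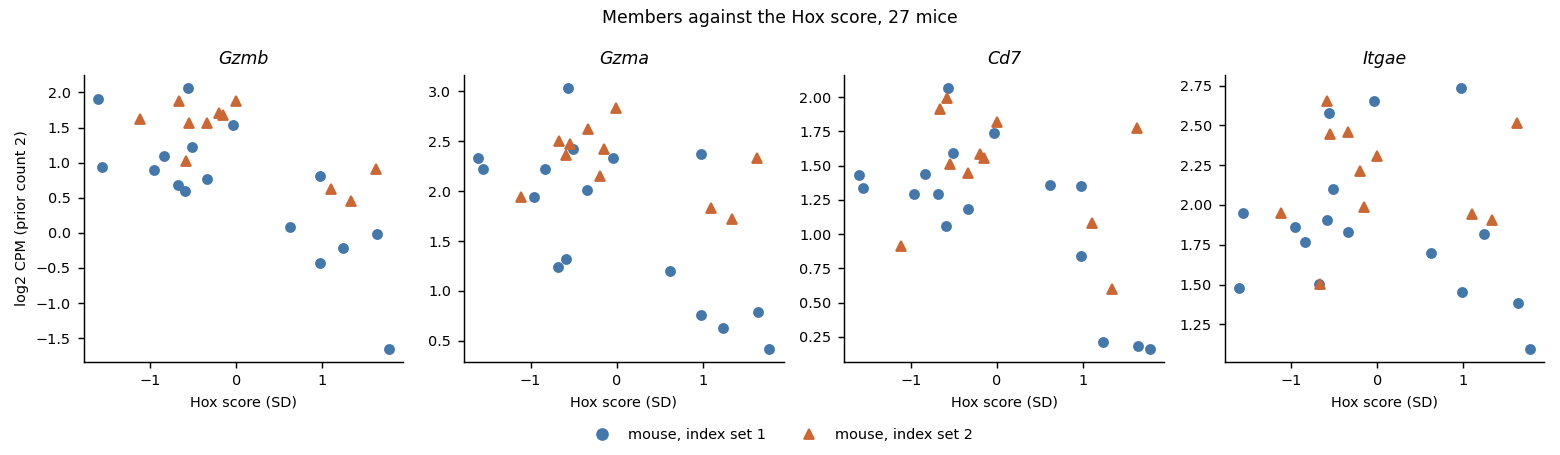
Log2 CPM (prior count 2, vertical axes) of Gzmb, Gzma, Cd7 and Itgae against the Hox score in SDs (horizontal axes) in 27 mice, with the index set as colour and shape. The 9 mice to the right of the gap have 0.146 to 1.71 CPM of Gzmb and the 18 to the left 1.33 to 4.02 CPM, while the values of Itgae on the 2 sides overlap throughout.

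With the Hox score as a covariate in the edgeR fit, 3 members had slopes over dose rank past the threshold, where the fit without it had 0. Over all genes 26.4% passed in that fit, and 13.5% passed upward. The 3 members were Gzmb (0.136 per step, adjusted p = 0.0144), Gzma (0.120, adjusted p = 0.0187) and Cd3g (0.093, adjusted p = 0.0443), all upward. A count of 3 in 10 is close to the first of these shares and above the second, and the members varied together. At no single dose was a member called with the score in the fit. With the score and a term for the index set together, an alternative added after the values were seen, the count was again 0, where 0.709% of all genes passed, and the slopes were 0.069 for Gzmb, 0.109 for Gzma and 0.067 for Cd3g (adjusted p of 0.691, 0.442 and 0.647). A slope over dose in these members cannot be told apart from the change of index set.

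Other genes of the T cell receptor complex and its proximal signalling gave no call. Of 18 listed, 9 were tested, 0 passed at 30 μg/kg and 0 had a slope past the threshold, with a median log2 fold change of -0.30 at 30 μg/kg. Cd8b1 and Cd4 made up the coreceptor list, of which 1 was tested and 0 called. Of 19 genes of cytotoxic granules and NK-type receptors, 7 were tested and 0 called, with a median of -0.11. The summed level of the receptor list was 11.2 to 18.9 CPM in the vehicle mice and 12.6 to 13.97 CPM at 30 μg/kg.

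Among 18 genes of homing and retention, 10 were tested and 1 passed at 30 μg/kg. This was S1pr1, the sphingosine 1-phosphate receptor by which lymphocytes leave tissue and which endothelial cells also carry. It had 0.590, 0.738 and 0.982 CPM in the vehicle mice and 1.87, 1.09 and 4.57 CPM at 30 μg/kg, where mouse 67 was far above the others. Its log2 fold change was 1.68 (SE 0.50, adjusted p = 0.0338 by edgeR), and without mouse 67 it was 0.95 and no longer called. The call was also lost without vehicle mouse 2, 3 or 4, with values of 1.53, 1.65 and 1.89. Fat and muscle markers differed widely between the mice of this group. Of 4 adipose genes 2 passed at 30 μg/kg, Cfd (log2 fold change 3.03, SE 0.94, adjusted p = 0.0390) and Fabp4 (2.496, SE 0.81, adjusted p = 0.0489). Without mouse 67 these stood at 1.66 and 1.03, and neither was called. The summed adipose level was 1.48 to 15.8 CPM in the vehicle mice and 14.8 to 153 CPM at 30 μg/kg, and it was also high at 0.01 μg/kg, at 47.9 to 97.3 CPM. The 8 muscle and stroma genes had 128 to 156 CPM in vehicle and 128 to 702 CPM at 30 μg/kg, with 0 called at that dose and 4 rising over dose. Their part in the result for S1pr1 was not tested.

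Of 13 lymphocyte transcription factors 10 were tested. Nfil3, a factor of innate lymphocyte development that also follows the circadian clock, fell from 12.1 to 13.1 CPM in the vehicle mice to 1.29 to 2.59 CPM at 30 μg/kg, with a log2 fold change of -2.68 (SE 0.44, adjusted p = 0.000481). Over dose Nfil3 fell and Id2, chosen after its values were seen, rose (slope 0.057). With the index set in the fit, Nfil3 was still called at 30 μg/kg (-3.45, adjusted p = 0.0461), while its slope of -0.277 no longer passed (adjusted p = 0.118). Which cells Nfil3 came from was not tested.

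The epithelial partners of intraepithelial lymphocytes, 15 of 15 tested, had 0 calls at 30 μg/kg. Over dose 4 rose and 1 fell, where 11.8% of all genes rose and 11.6% fell. Of the 4 butyrophilin-like genes tested, 3 rose over dose, and Btnl1 had a slope of 0.042 (adjusted p = 0.0742). The genes named here were chosen after their values were seen. Btnl6 had 113 to 134 CPM in the vehicle mice, 157 to 178 CPM at 1 μg/kg and 157 to 181 CPM at 30 μg/kg, without overlap. Its slope was 0.084 (SE 0.014, adjusted p = 7.35e-05), and at 30 μg/kg its 1.33-fold difference (adjusted p = 0.0297) was under the fold threshold. Btnl4 had a slope of 0.048, Btnl2 of 0.085 and H60c, a ligand of the NKG2D receptor, of 0.104 (adjusted p of 0.00214, 0.0221 and 0.00382). Over 27 fits that each lacked 1 mouse, the Btnl2 slope ranged between 0.055 and 0.097, and 1 of these fits lost its call. Il7, a lymphocyte survival factor, fell, with a slope of -0.082 (adjusted p = 0.00439).

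The level of Btnl6 lay in all mice up to 0.3 μg/kg between 95.7 and 139.7 CPM, and in all mice from 1 μg/kg between 147 and 199.6 CPM. Mouse 41 at 1 μg/kg, the only mouse at that dose from the first index set, was at 157 CPM, with the 2 mice of the second set at 166 and 178 CPM. With a term for the index set the slopes of Btnl6, Btnl4, Btnl2, H60c and Il7 no longer passed. Btnl6, Btnl4 and Btnl2 then had slopes of 0.019, 0.0078 and 0.0044 (adjusted p of 0.722, 0.890 and 0.982). H60c and Il7 had 0.121 and -0.071 (adjusted p of 0.231 and 0.372), close to their slopes without the term. Whether the slope of Btnl6 differed from those of the members was not tested.

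The AhR battery was the list with the clearest change, with 5 of 7 genes higher at 30 μg/kg and 0 lower. Cyp1b1, a cytochrome P450 like Cyp1a1, had 1 or 2 reads in each vehicle mouse and 2597 to 3425 reads at 30 μg/kg. Nqo1, a quinone reductase, rose from 39.8 to 61.7 CPM in vehicle to 89.9 to 125 CPM (log2 fold change 0.97, SE 0.23, adjusted p = 0.00929), a call lost without vehicle mouse 2 (0.81) or mouse 66 (0.79). Tiparp, a feedback repressor of AhR, rose from 24.0 to 32.96 CPM to 48.7 to 62.3 CPM (1.04, SE 0.16, adjusted p = 0.000184). With the index set as the only added term neither was called, at 0.36 for Tiparp (adjusted p = 0.417) and 1.13 for Nqo1 (adjusted p = 0.116). With the Hox score added as well, Nqo1 was called again (1.47, adjusted p = 0.00993) and Tiparp was not (0.25, adjusted p = 0.548). Without the score, the term came from mouse 41 against mice 43 and 44, where Tiparp had 16.7, 23.5 and 29.7 CPM. Inside the second index set, the contrast of the 30 and 3 μg/kg groups gave Tiparp a value of 1.19 (SE 0.13, adjusted p = 0.00165 by edgeR). For Nqo1 this contrast gave 0.42 (SE 0.22, adjusted p = 0.522).

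**Figure D5:**
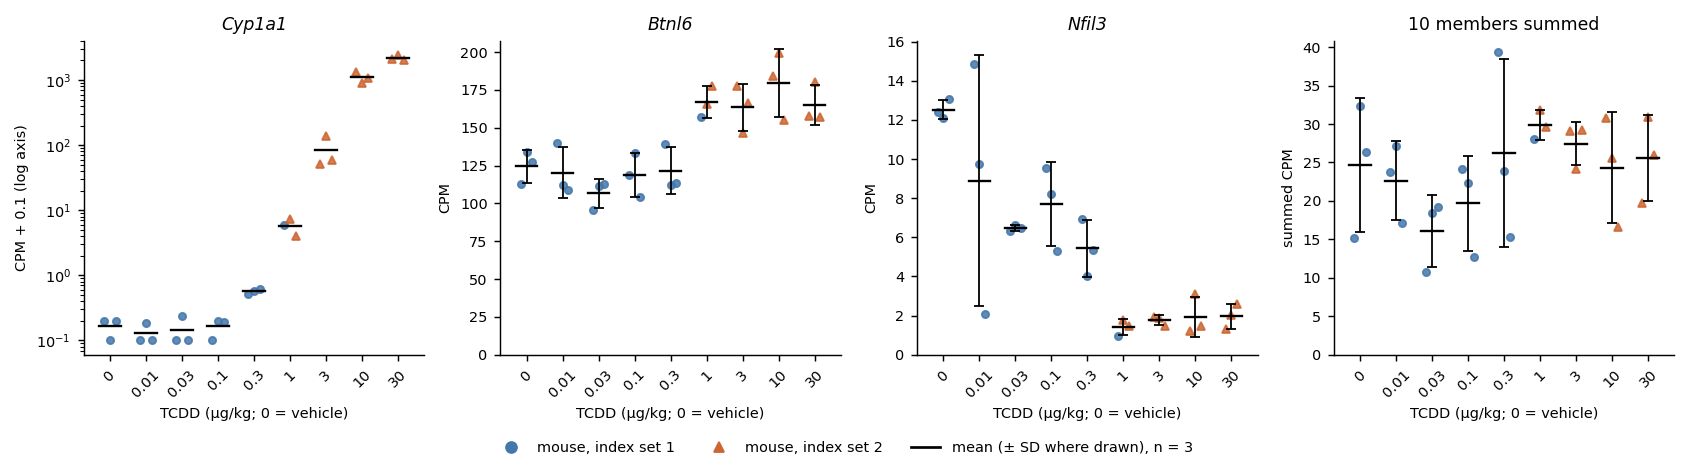
CPM by TCDD dose in μg/kg in each mouse for Cyp1a1 (log axis, CPM + 0.1, with the mean), Btnl6, Nfil3 and the sum of the 10 members (linear axes from 0, with the mean and SD of 3 mice). Cyp1a1 stood at 0.419 CPM or more in every mouse from 0.3 μg/kg, Btnl6 above every vehicle mouse from 1 μg/kg and Nfil3 below every vehicle mouse from 0.03 μg/kg, while the members' sum overlapped between vehicle (15.2 to 32.4 CPM) and 30 μg/kg (19.7 to 30.9 CPM).

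The lists of leukocytes at large, B cells, plasma cells, myeloid cells and mast cells had 0 calls at 30 μg/kg. The genes of these lists named here were chosen after their values were seen. Of the 8 pan-leukocyte genes 0 passed at 30 μg/kg and 2 rose over dose (Ptpn6 and Arhgdib), and their summed level was 70.9 to 73.6 CPM in the vehicle mice and 70.4 to 71.0 CPM at 30 μg/kg. Ptprc, which encodes CD45 of all leukocytes, had 18.5, 18.3 and 17.9 CPM in the vehicle mice and 12.2, 10.3 and 11.1 CPM at 30 μg/kg. These groups did not overlap, and the log2 fold change of -0.70 (SE 0.25) had an adjusted p of 0.0675 by edgeR. The genes tested were 8 for B cells, 6 for plasma cells, 8 for myeloid cells and 2 for mast cells. Over dose 3 plasma cell genes rose (Jchain, Igha and Iglc1), and of the myeloid genes Cd74 rose and Cx3cr1 fell. The 10 epithelial markers had 0 calls at 30 μg/kg and 5 upward slopes. Beside these counts and those of the lists above, 11.8% of all genes had an upward and 11.6% a downward slope past the threshold. With the Hox score and the index set term in the fit, 0.709% of all genes passed.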

How the data were processed

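For each of 27 mice, the deposited counts are whole reads for 46078 gene identifiers (45143 with a symbol), which the authors had not normalized. The submitters' processing notes name FastQC 0.11.3, Trimmomatic 0.33, TopHat2 2.1.0, SAMtools 1.2.0, HTSeq 0.6.1, DESeq and the build GRCm38. Use of strand is not given in the sources used here. Reads on no feature were 29.1 to 33.3% and reads with more than 1 alignment 30.7 to 37.1% of each file, and both stayed out of library sizes. Groups came from the dose in the labels. No pair of mice of a group agreed within sampling noise (the lowest chi-square per degree of freedom among 27 pairs was 5.84). The labels name each mouse separately.

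From the counts, 16496 genes passed filterByExpr (minimum count 10), and 1 quasi-likelihood fit of edgeR 4.0.16 in R 4.3.3, with TMM factors, held all 9 groups. Each dose was compared with vehicle, and a slope over dose rank was tested. P-values were adjusted by Benjamini-Hochberg over all genes tested, and a call needed an adjusted p under 0.05 with, for a dose, a fold change of at least 1.5. Within the second index set 16169 genes were tested. Log2 CPM used a prior count of 2, and correlations 100000 permutations (NumPy 2.4.6). Coordinates are from GENCODE on GRCm38. Steps were tested on simulated counts. Alternatives were RLE factors, DESeq2 1.42.0, limma 3.58.1 voom (posterior probability of at least 0.8), no filter, a term for the index set, a Hox score, the compared groups alone, adjusted p alone, log10 dose and each mouse left out. The Hox score together with the index set term was added after the data were seen.

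The members, gene lists and tests were chosen with earlier results of these data known. Named genes were the members and list genes past the threshold at 30 μg/kg (at most the 4 with the largest mean CPM per list). The 5 genes most like the members were also named. Other list genes are marked as chosen after their values were seen, except Epcam, Krt8, Cd4 and Cd8b1, which are named without that mark. A member was too low to judge where it was not kept by the filter or had a median under 10 reads. Of the list genes past the threshold, 1 is not reported here, nor are counts of calls in the lists that hold it.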

Additional observations from a re-analysis of the deposited data

How the results depend on the processing

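The count of members called at each dose, over dose and within the second index set was recomputed 191 times, and 190 times it stayed at 0. The exception was the slope with the Hox score in the fit, with 3 members. Of 499 alternative values for single members, 3 were called, those same slopes. Some members changed sign without being called. Under limma voom, the 30 μg/kg group had a log2 fold change that was 0.063 for Trdc and 0.00025 for Cd160. Adding the index set as a term gave values at 30 μg/kg of -0.35 for Cd3g, 0.14 for Itgae and -0.32 for Gzmb. In this fit of groups the term is estimated from the 1 μg/kg group alone, as mouse 41 against mice 43 and 44. In the slope fit the term is estimated over all 27 mice and follows dose, and slopes were -0.043 for Gzmb, -0.081 for Trdc and -0.025 for Cd7. With that term and the Hox score together, values at 30 μg/kg were 0.40 for Itgae, 0.13 for Trdc and 0.25 for Cd160, and the slope of Trdc was -0.057. Leaving out each mouse in turn, values at 30 μg/kg ran from -0.040 to 0.37 for Cd3g, -0.16 to 0.48 for Cd7, -0.32 to 0.12 for Itgae, -0.40 to 0.12 for Ccl5, -0.56 to 0.28 for Trdc and -0.41 to 0.53 for Cd160, and slopes from -0.0083 to 0.030 for Ccl5, -0.0048 to 0.033 for Cd160, -0.096 to 0.18 for Cfd and -0.12 to 0.13 for Fabp4. S1pr1, Cfd and Fabp4 lost their calls in 4 of 6 such fits each and under limma voom, the index set term, that term with the Hox score and the compared groups alone, Cfd also under DESeq2 (3.04, adjusted p = 0.0564), and Nqo1 lost its call in 2, with the index set term (1.13) and under limma voom, where 0.97 (adjusted p = 0.00940) missed only the posterior probability of 0.8. With that term Tiparp was not called at 30 μg/kg (0.36, or 0.25 with the Hox score too), nor was the slope of Nfil3 (-0.277, or -0.261). The slope of Btnl2 lost its call in 1 of the 27 fits that lacked a mouse. The causes were not tested. No paired analysis was possible because no mouse number occurs in more than 1 group. Depth limits the members to 2 to 96 reads per mouse, and with 3 mice a group changes of 2-fold and, for some, above could be missed.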
